A study of Mus musculus with 4 samples.

Results

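The genes described here are 10 secreted growth and trophic factors through which microglia can act on neural progenitors and blood vessels: Hgf, Igf1, Pdgfa, Pdgfb, Vegfa, Vegfb, Hbegf, Egfl7, Ostn and Grn. They were chosen by gene name, and all 10 were found among the 16655 genes listed in both deposited tables, while 9 of them were among the 15236 genes with enough reads to be tested. The RNA came from microglia, which are macrophages that reside in brain tissue, and the cells had been isolated from embryonic mouse telencephalon by fluorescence-activated sorting. The knockout group carried a conditional deletion of Arid1a (genotype Arid1acKO) and the control group carried the floxed alleles (genotype Arid1afl/fl), both on a C57BL/6 background at embryonic day 14. The labels name 2 samples per genotype. Values were analysed for 1 cKO library (Arid1a cKO 2) and 2 control libraries (control 5 and control 6), and the other knockout sample was not analysed here. No label names the Cre driver, says whether a sample was 1 embryo or a pool, or states that samples came from separate animals. P-values therefore measure only the spread between these libraries, which may be technical.

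Growth factors of this kind are secreted proteins that bind receptors on neighbouring cells. Hgf signals through the receptor kinase Met, Igf1 through Igf1r, the PDGF chains through Pdgfra and Pdgfrb, the VEGF proteins through Flt1 and Kdr with neuropilins as partners, and Hbegf through Egfr and Erbb4. Egfl7 is a matrix-bound protein of endothelial cells, osteocrin (Ostn) binds the clearance receptor Npr3, and progranulin (Grn) is a glycoprotein of macrophages that is secreted and also carried to lysosomes by Sort1. In the developing brain, microglia are known as a source of Igf1, and their contacts with sprouting vessels and with progenitors are well described.

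The deposited counts summed to 17262261 reads in the cKO library, 18608979 in control 5 and 13774075 in control 6. Levels are given as CPM, the reads of a gene relative to the reads in its library, scaled between libraries by the TMM method. Knockout levels have no replicate error and carry an exact Poisson interval at the 95% level. That interval reflects counting error alone, because reads copied by PCR do not stand for separate molecules. The targeted gene Arid1a had 68.9 CPM in the cKO library (interval 65.1 to 72.8), against 109 CPM in control 5 and 130 CPM in control 6. The knockout was the lowest library, but the log2 fold change of -0.80 (SE 0.41) did not pass the edgeR test (adjusted p = 0.901). Reads were counted over the full gene, and Cre removes only a segment of a floxed allele, so this level does not measure the deletion. All 10 microglia markers examined, among them P2ry12 and Csf1r, were present in every library. Their summed level was 14003 CPM in the cKO library, against 18773 and 26280 CPM in controls 5 and 6, and 9 of the 10 markers lay below both controls in the cKO library, beside 31.1% of all tested genes. In sorted bulk RNA, fewer cells of a type and less RNA per cell cannot be told apart, and the part of this marker difference in the results below was not tested. Among markers of other cells, the summed level was 278 CPM in the cKO library against 89.0 and 170 CPM for osteoclasts. Of these markers, Nfatc1 had 129 CPM in the cKO library against 67.0 and 105 CPM. Atp6v0d2 had 93.9 CPM against 5.25 and 3.26 CPM, and Itgb3 lay between the controls, with 46.7 CPM against 13.4 and 58.8 CPM. Of the 6 osteoclast markers tested, 4 lay above both controls and 1 below both. For neural progenitors the summed level was 211 CPM in the cKO library against 146 and 152 CPM. That higher sum rested mainly on Vim, with 102 CPM in the cKO library against 36.5 and 18.4 CPM. Nes, the other abundant progenitor marker, lay between the controls, with 97.0 CPM in the cKO library against 97.0 and 113 CPM. Of the 8 progenitor markers tested, 5 lay above both controls and 2 below both. The summed level was 641 CPM in the cKO library against 698 and 1064 CPM for border-associated macrophages. It was 219 CPM against 177 and 224 CPM for monocytes and neutrophils, and 134 CPM against 147 and 199 CPM for neurons. It was 17.7 CPM against 14.2 and 17.7 CPM for mural cells and 40.9 CPM against 37.8 and 46.5 CPM for erythroid cells. Their part in the results was not tested either.

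Promoter sequence is shown for Hgf, Egfl7, Igf1 and Grn, which are the factor with the strongest test among those with a window, the endothelial factor, the most abundant factor below both controls and the most abundant factor of all. RefSeq windows on GRCm38.p6, which run from 250 bases before to 50 bases after a transcription start, were at hand for 7 of the 10 members. Egfl7 has 3 such windows and Hgf 2, and 1 window of each is shown, for Egfl7 the one with a PU.1 match, picked after the motif search. The Igf1 window begins at 87860861, inside the gene, which starts at 87858265, so it belongs to an internal start. No window at the Igf1 gene start was at hand. The Egfl7 window shown begins at 26583615, also inside the gene, which starts at 26580014. Capitals mark matches to the motifs searched on both strands. The matches found here were the core site of the myeloid factor PU.1 (GAGGAA), the AP-1 site (TGANTCA) and the GC box (GGGCGG).
Hgf, chr5:16553245-16553544, plus strand: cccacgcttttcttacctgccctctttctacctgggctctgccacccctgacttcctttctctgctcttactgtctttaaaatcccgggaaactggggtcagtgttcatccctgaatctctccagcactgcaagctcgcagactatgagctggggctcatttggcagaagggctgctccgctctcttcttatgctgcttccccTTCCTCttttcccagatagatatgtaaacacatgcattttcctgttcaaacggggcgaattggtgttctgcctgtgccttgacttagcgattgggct
Egfl7, chr2:26583615-26583914, plus strand: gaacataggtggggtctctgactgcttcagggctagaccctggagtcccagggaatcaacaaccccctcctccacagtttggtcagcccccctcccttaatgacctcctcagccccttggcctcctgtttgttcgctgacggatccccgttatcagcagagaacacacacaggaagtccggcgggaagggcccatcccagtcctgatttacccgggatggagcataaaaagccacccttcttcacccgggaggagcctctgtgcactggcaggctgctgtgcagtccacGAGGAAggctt
Igf1, chr10:87860861-87861160, plus strand: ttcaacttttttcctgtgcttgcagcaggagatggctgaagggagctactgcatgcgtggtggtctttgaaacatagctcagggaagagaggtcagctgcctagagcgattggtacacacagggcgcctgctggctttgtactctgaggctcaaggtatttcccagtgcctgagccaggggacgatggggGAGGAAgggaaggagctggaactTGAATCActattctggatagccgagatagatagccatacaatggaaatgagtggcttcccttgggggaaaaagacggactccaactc
Grn, chr11:102430257-102430556, plus strand: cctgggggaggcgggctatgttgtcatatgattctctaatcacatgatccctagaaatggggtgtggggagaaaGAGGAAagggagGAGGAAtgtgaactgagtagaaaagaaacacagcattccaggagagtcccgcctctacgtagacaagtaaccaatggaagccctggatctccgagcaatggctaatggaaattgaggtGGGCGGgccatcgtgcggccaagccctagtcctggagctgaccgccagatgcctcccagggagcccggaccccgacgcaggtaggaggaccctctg
The PU.1 core stood once in the Hgf window, with its first base at -47 from the transcription start, and once in the Igf1 window, at -60. The Grn window held 2 copies, at -176 and -164, and the Egfl7 window shown held 1 copy, at 40 on the transcribed side. The other Egfl7 windows held no PU.1 core, and one of them held 4 GC boxes, while the other Hgf window held a PU.1 core at -181. That motif is frequent, being present in 28.3% of all 32851 promoter windows. The Igf1 window also held an AP-1 site (7.81% of all windows) and the Grn window a GC box (35.7%). The hypoxia response element core (ACGTG) was found in only 1 of the 12 member windows, an alternative start of Vegfa, against 19.6% of all windows. The E-box (CACGTG), which contains the letters of that core, the C/EBP site (TTGCNNAA) and the TATA box (TATAAA) were absent from the 12 windows, against 7.15%, 10.8% and 13.6% of all windows. A match describes the letters and shows no binding, and a missing match says only that these letters are not in the window.

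None of the 9 tested members passed the test over all genes (edgeR quasi-likelihood with Benjamini-Hochberg adjustment), where 6 of 15236 genes passed (0.0394%), 0.0131% higher and 0.0263% lower in the cKO library. At an unadjusted p under 0.05 there were 4 members, Hgf, Egfl7 and Ostn higher and Igf1 lower in the cKO library, beside 6.0% of all tested genes (2.46% higher and 3.54% lower). Igf1 missed that limit after scaling by DESeq2 size factors (edgeR unadjusted p = 0.0502, adjusted p = 0.849) or upper quartiles (edgeR unadjusted p = 0.0639, adjusted p = 0.941). The DESeq2 Wald test called 1 member, Hgf (adjusted p = 0.0248), where it called 1.84% of the genes to which it gave an adjusted p. The knockout lay above both controls in 4 tested members (44.4%) beside 38.0% of all tested genes, and below both in 2 (22.2%) beside 31.1%. Those 4 members, Hgf, Egfl7, Ostn and Hbegf, were each at least 2-fold above both controls, as were 9.84% of tested genes. No member was 2-fold or more below both controls, beside 7.56% of tested genes. The median log2 fold change of the tested members was 0.20, beside 0.05 over all tested genes. It was 0.81 over control 5 alone and 0.21 over control 6 alone, and -0.096 among genes with 5 CPM or more in 2 libraries. Pdgfa, Vegfb and Grn lay between the controls, and Igf1 and Pdgfb below both.

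**Figure D1:**
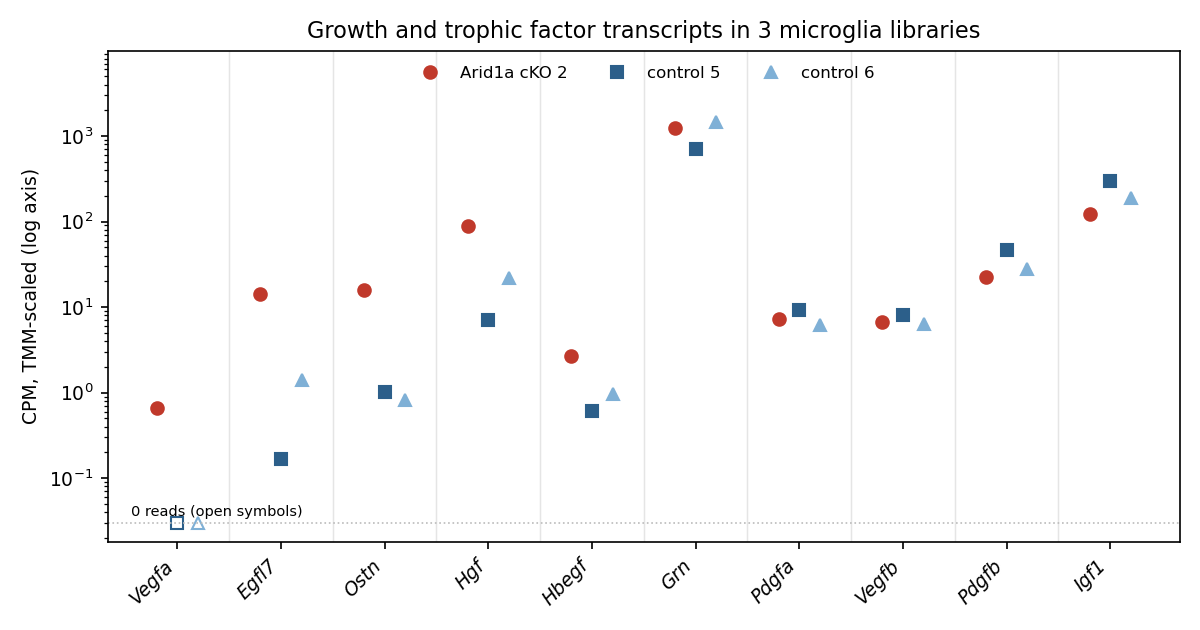
TMM-scaled CPM of each of the 10 factors on a log axis, with 1 symbol per library, knockout at the left of each gene and control 5 and control 6 beside it, ordered by the ratio to the control mean. Open symbols on the dotted line mark 0 reads. Egfl7, Ostn, Hgf and Hbegf lie above both controls, as does Vegfa, with 12 reads against 0 in each control. Igf1 and Pdgfb lie below both.

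Hgf (ENSMUSG00000028864, chromosome 5, 16553495 to 16620152, plus strand, GRCm38), which drives growth and migration of cells that carry Met, had 1612 reads in the cKO library, against 126 in control 5 and 297 in control 6. This was 88.2 CPM in the cKO library (interval 84.0 to 92.7), against 7.04 and 22.0 CPM in controls 5 and 6. The knockout was 12.5-fold above control 5 and 4.01-fold above control 6, and the controls themselves lay apart. The fitted log2 fold change was 2.61 (SE 0.65, edgeR adjusted p = 0.369). A short unclassified gene, Gm43489, covers 6.74% of the Hgf exon bases on the same strand and had 23 reads in the cKO library and 0 in each control. The receptor gene Met also lay above both controls, with 193 reads in the cKO library, 0 in control 5 and 17 in control 6 (log2 fold change 4.08, SE 1.85, adjusted p = 0.858).

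Hgf is made as an inactive chain that serine proteases cut. Plau, the urokinase protease, can act on it, and had 20.0 CPM in the cKO library, against 0.279 CPM in control 5 and 6.97 CPM in control 6 (log2 fold change 2.47, SE 1.35, adjusted p = 0.931). Hpn, the activating protease hepsin, lay between the controls, with 6.08 CPM in the cKO library against 3.52 and 12.8 CPM. Spint1, an inhibitor of these activators, also lay between them, with 22.0 CPM in the cKO library against 31.4 and 15.0 CPM. St14, the activator matriptase, was scarce, with 22 reads in the cKO library, 0 in control 5 and 20 in control 6. Spint2, another inhibitor of these activators, had 1.81 CPM in the cKO library against 1.17 and 1.63 CPM, and the plasminogen activator Plat had 1.04 CPM against 0.894 and 0.667 CPM. The ligand, its receptor, 2 proteases and 1 inhibitor lay above both controls, as did 38.0% of all tested genes. Hpn, Spint1 and St14 lay between the controls. Spint2 and Plat had at most 33 and 19 reads in a library, and none of these genes passed the edgeR test.

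Egfl7 (ENSMUSG00000026921, chromosome 2, 26580014 to 26593120, plus strand) had 260 reads in the cKO library, against 3 in control 5 and 19 in control 6. This was 14.2 CPM in the cKO library (interval 12.6 to 16.1), against 0.168 and 1.41 CPM in controls 5 and 6. The ratio was 84.9 over control 5, with a counting interval of 28.7 to 415, and 10.1 over control 6, with an interval of 6.34 to 17.1. The fitted log2 fold change was 4.18 (SE 1.29, edgeR adjusted p = 0.576), so the excess over both controls did not pass over all genes. The opposite-strand genes Agpat2 and Mir126b cover 3.41% of the Egfl7 exon bases. Gm20532 and Mir126a, which are not listed in the tables, cover 9.41% on the same strand. Agpat2, an enzyme of phospholipid synthesis that overlaps the end of Egfl7, had 59 reads in the cKO library, 0 in control 5 and 12 in control 6. The library kit does not mark strand, so reads in the shared bases cannot be assigned.

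Egfl7 is known as an endothelial gene, and the endothelial markers examined lay on both sides of the controls. Of 16 markers, 11 were listed in both tables, with 6 above both controls and 4 below both. Their summed level was 32.3 CPM in the cKO library, against 47.6 CPM in control 5 and 42.5 CPM in control 6. Pecam1 weighed most in the control sums, and without it, a choice made after seeing the data, the sum was 28.4 CPM in the cKO library against 27.1 and 15.2 CPM. Tek, an angiopoietin receptor, stood only in the table with control 5, with 1 knockout read against 80. With Tek added and Pecam1 left out, the sum was 28.5 CPM in the cKO library against 31.6 CPM in control 5 and 15.2 CPM in control 6, so which library was highest depended on these genes. Pecam1, which myeloid cells also express, had 3.89 CPM in the cKO library against 20.5 and 27.3 CPM, and the endothelial cadherin Cdh5 had 0.657 CPM against 1.96 and 2.45 CPM. The angiopoietin receptor relative Tie1 had 4 reads in the cKO library, against 53 and 62. On the other side, the tight junction gene Cldn5 had 126 reads in the cKO library, 32 in control 5 and 0 in control 6. The transcription factor genes Sox17 and Erg had 27 and 16 reads in the cKO library and 0 in each control. Emcn, Robo4, Ly6c1 and Slco1c1 were not listed in either table. None of the 11 markers listed in both tables was at 0 in the cKO library, while 3 were at 0 in control 5 and 4 in control 6. The listing favours this pattern, because the cKO library stands in both tables. Among all genes listed in both, 175 were at 0 in the cKO library, 2696 in control 5 and 1219 in control 6. Sox17, Erg and Esam, at 0 in both controls, are among the 6 above both and were listed through their cKO reads alone. These zeros therefore say nothing on direction. The part of these markers in the Egfl7 difference was not tested.

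**Figure D2:**
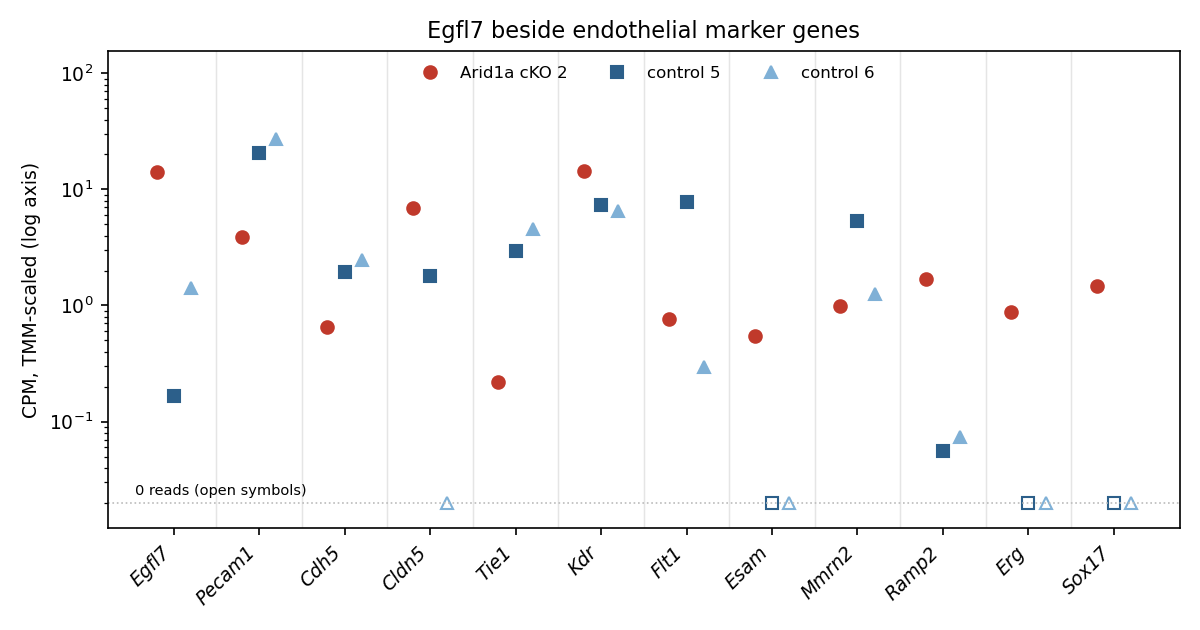
TMM-scaled CPM on a log axis of Egfl7, at the left, and of the 11 endothelial markers listed in both tables, with 1 symbol per library and the knockout first. Open symbols mark 0 reads; Egfl7 is above both controls in the cKO library while Pecam1, Cdh5 and Tie1 are below both, and Kdr, Cldn5, Ramp2, Erg, Sox17 and Esam above both.

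Vegfa (ENSMUSG00000023951, chromosome 17, 46016993 to 46032369, minus strand), the main attractant of sprouting vessels, was close to absent from these libraries. It had 12 reads in the cKO library, against 0 in each control. This was 0.657 CPM in the cKO library (interval 0.339 to 1.15), at least 3.37-fold higher than controls set at a floor of 3 reads per library. It had too few reads to be tested by the fit across all genes. Of the 16655 shared genes, 963 (5.78%) had 0 reads in both controls, and 445 of these had at least the 12 knockout reads of Vegfa. Such genes are listed only through the cKO library, which stands in both tables, so the listing favours this pattern. Only 175 shared genes were at 0 in the cKO library. Vegfb (ENSMUSG00000024962, chromosome 19, 6982473 to 6987651, minus strand), a related ligand of Flt1, had 6.68 CPM in the cKO library, against 8.04 and 6.37 CPM in controls 5 and 6. The knockout thus lay between the controls, with a log2 fold change of -0.11 (SE 0.88, edgeR adjusted p = 1.00).

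Among the VEGF receptors, Kdr had 14.3 CPM in the cKO library, against 7.32 and 6.52 CPM in controls 5 and 6 (log2 fold change 1.04, SE 0.74, adjusted p = 0.962). Flt1 was uneven between the controls, with 14 reads in the cKO library, 139 in control 5 and 4 in control 6. The co-receptor Nrp2 had 16.0 CPM in the cKO library against 31.2 and 60.4 CPM (log2 fold change -1.51, SE 0.60, adjusted p = 0.799). Nrp1, the more abundant neuropilin, had 117 CPM in the cKO library against 111 and 218 CPM, between the controls. The receptor side therefore held 1 gene above both controls, 1 below both and 2 between them.

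Ostn (ENSMUSG00000052276, chromosome 16, 27307489 to 27351212, plus strand), a small peptide best known from bone and muscle that spares natriuretic peptides from clearance, had 293 reads in the cKO library, against 18 in control 5 and 11 in control 6. This was 16.0 CPM in the cKO library (interval 14.3 to 18.0), against 1.01 and 0.815 CPM in controls 5 and 6. The controls lay close together, and the ratio was 16.0 over control 5 and 19.7 over control 6. The fitted log2 fold change was 4.13 (SE 0.95), with an edgeR adjusted p of 0.313 and a DESeq2 adjusted p of 0.0809. The opposite-strand gene Gm32312, which is not listed in the tables, covers 12.9% of its exon bases. Of the natriuretic receptors, Npr1 had 4.54 CPM in the cKO library, between 5.31 and 1.33 CPM in controls 5 and 6. Npr3 was not listed, and Npr2 stood only in the table with control 5, with 0 knockout reads against 58. Of 10 osteoblast and muscle markers, Runx2 and Ckm were the tested ones, with 16 and 25 reads in the cKO library against at most 30 and 0 in a control. Their summed level was 2.24 CPM in the cKO library against 1.68 and 0.963 CPM. Ibsp, a bone matrix gene, stood only in the table with control 5, with 0 knockout reads against 127, and with it the sum was 2.24 CPM in the cKO library against 8.77 CPM in control 5, the other direction. The part of these markers in the Ostn difference was not tested, and 7 were not listed, among them Sp7, Bglap, Col1a1, Myod1 and Myog.

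Hbegf (ENSMUSG00000024486, chromosome 18, 36504929 to 36515805, minus strand), a membrane-anchored ligand released by ADAM proteases, had 49 reads in the cKO library, against 11 in control 5 and 13 in control 6. This was 2.68 CPM in the cKO library (interval 1.98 to 3.55), against 0.614 and 0.963 CPM in controls 5 and 6. The ratio was 4.37 over control 5 (counting interval 2.24 to 9.31) and 2.78 over control 6 (1.49 to 5.59). With so few reads the fitted log2 fold change of 1.76 had an SE of 1.98 (edgeR adjusted p = 1.00). Its receptor Egfr was not listed in either table, and Erbb4 had 26 reads in the cKO library, 0 in control 5 and 41 in control 6. Adam17 and Adam10, sheddases of this family, had 243 CPM in the cKO library against 208 and 267 CPM, and 620 CPM against 505 and 470 CPM. Both enzymes thus had many reads in all 3 libraries, while Hbegf had at most 49, and these levels were not scaled for length.

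Other ligands of the EGF family lay on both sides of the controls. Tgfa, a ligand of Egfr, had 0 reads in the cKO library, against 70 in control 5 and 113 in control 6. At a floor of 3 reads this is at least 37.4-fold lower in the cKO library than the mean of the controls (edgeR adjusted p = 0.332, DESeq2 adjusted p = 0.0255). Egf itself had 13 reads in the cKO library against 44 and 65. Btc, another ligand of this family, had 19 reads in the cKO library and 0 in each control. It was listed through its cKO reads alone, so it says nothing on direction. Nrg1, a ligand of the ERBB receptors, had 54 reads in the cKO library against 9 and 37. In CPM this was 2.96 in the cKO library against 0.503 and 2.74, so it lay little above control 6. Areg and Ereg were not listed.

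Igf1 (ENSMUSG00000020053, chromosome 10, 87858265 to 87937042, plus strand), a survival factor for neurons and oligodendrocyte precursors, had 2220 reads in the cKO library, against 5394 in control 5 and 2545 in control 6. This was 122 CPM in the cKO library (interval 117 to 127), against 301 and 189 CPM in controls 5 and 6. The knockout was the lowest library, but the controls differed from each other by more than the knockout did from control 6. The fitted log2 fold change was -1.01 (SE 0.43, unadjusted p = 0.0474, edgeR adjusted p = 0.821), with -1.30 over control 5 alone and -0.64 over control 6 alone. The receptor Igf1r had 13.7 CPM in the cKO library against 19.3 and 26.5 CPM (log2 fold change -0.74, SE 0.61, adjusted p = 1.00). The related receptor Insr had 23.4 CPM in the cKO library against 24.0 and 31.4 CPM. Igfbp4, a carrier protein that limits IGF action, had 79.9 CPM in the cKO library against 100 and 87.1 CPM. Other genes of the pathway did not share this direction. The carrier Igfbp2 had 3.01 CPM in the cKO library against 2.51 and 0.815 CPM, above both controls. The receptor Igf2r, which clears Igf2, had 1.31 CPM against 2.57 and 0.889 CPM, between them. The carriers Igfbp3 and Igfbp7 and the protease Pappa, which cuts IGF carriers, had 6, 8 and 10 reads in the cKO library and 0 in each control. They were not tested. Genes at 0 in both controls are listed in both tables only through their cKO reads, so these say nothing on direction. Igf2 stood only in the table with control 5, with 0 knockout reads against 104.

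Pdgfb (ENSMUSG00000000489, chromosome 15, 79995900 to 80014808, minus strand), the chain that recruits pericytes, had 414 reads in the cKO library, against 837 in control 5 and 381 in control 6. This was 22.7 CPM in the cKO library against 46.8 and 28.2 CPM in controls 5 and 6. The knockout was lowest, and the log2 fold change was -0.73 (SE 0.55, edgeR adjusted p = 0.993), or -1.04 over control 5 alone and -0.32 over control 6 alone. Pdgfa (ENSMUSG00000025856, chromosome 5, 138976014 to 138997370, minus strand), the chain that acts on oligodendrocyte precursors, had 7.23 CPM in the cKO library, against 9.22 and 6.22 CPM. It lay between the controls, with a log2 fold change of -0.10 (SE 0.87, adjusted p = 1.00). An opposite-strand gene, 6330403L08Rik, covers 26.1% of the Pdgfa exon bases and had 7 reads in the cKO library and 0 in each control. Pdgfc, another chain of the family, had 17 reads in the cKO library and 0 in each control. It was listed through its cKO reads alone, so it says nothing on direction. The receptor Pdgfrb, a mural cell marker, had 63 reads in the cKO library, 0 in control 5 and 26 in control 6. Pdgfra stood only in the table with control 6, with 0 knockout reads against 27.

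Grn (ENSMUSG00000034708, chromosome 11, 102430315 to 102437048, plus strand) was the most abundant factor in every library. It had 22630 reads in the cKO library, against 12694 in control 5 and 19534 in control 6. This was 1239 CPM in the cKO library (interval 1223 to 1255), against 709 and 1447 CPM in controls 5 and 6. The knockout lay between the controls, which themselves lay apart. The log2 fold change was 0.20 (SE 0.44, edgeR adjusted p = 1.00), with 0.81 over control 5 alone and -0.23 over control 6 alone. Sort1, its endocytic receptor, also lay between the controls, with 53.6 CPM in the cKO library against 37.0 and 63.4 CPM. Psap, the prosaposin with which progranulin travels to lysosomes, had 3087 CPM in the cKO library, against 5836 and 9928 CPM in controls 5 and 6 (log2 fold change -1.35, SE 0.38, edgeR adjusted p = 0.498, DESeq2 adjusted p = 0.0265). Ctsl, a lysosomal protease that cuts progranulin into granulins, had 723 CPM in the cKO library against 640 and 1195 CPM. Ctsb, a related protease, had 11009 CPM against 17019 and 18985 CPM (log2 fold change -0.71, SE 0.26, adjusted p = 0.738). Tmem106b, a lysosomal membrane protein tied to progranulin deficiency, had 39.9 CPM against 52.8 and 86.5 CPM. Psap, Ctsb and Tmem106b therefore lay below both controls, while Grn, Sort1 and Ctsl lay between them.

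**Figure D3:**
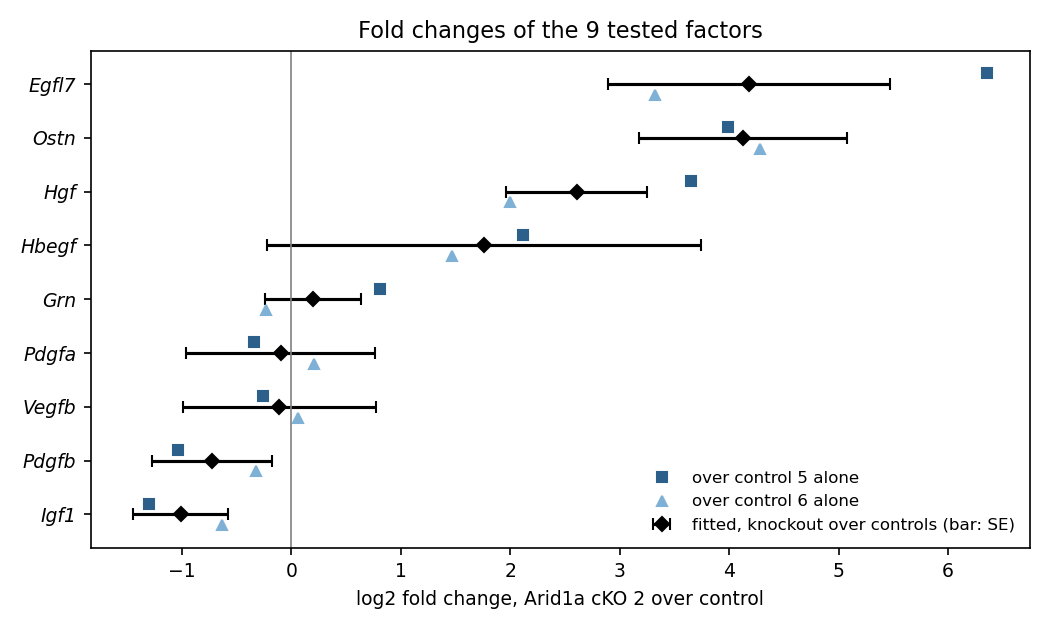
Fitted log2 fold changes of the 9 tested factors, knockout over controls, as diamonds with bars of 1 SE, beside the log2 fold change over control 5 alone (squares) and control 6 alone (triangles). Both single-control values lie on the same side of 0 for Egfl7, Ostn, Hgf, Hbegf, Pdgfb and Igf1, and on opposite sides for Grn, Pdgfa and Vegfb.

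Levels can be compared between genes only per length, as CPM per kb of annotated exon. On that scale Grn stood at 357 in the cKO library, against 310 ± 150 in controls (SD, n = 2), above 99.4% of tested genes in the cKO library and 98.6% and 99.4% in controls 5 and 6. Igf1 came next in controls at 24.7 ± 8.05 CPM per kb and stood at 12.3 in the cKO library. In the controls there followed Pdgfb (9.01 ± 3.15), Vegfb (4.49 ± 0.736), Pdgfa (2.48 ± 0.678) and Hgf (2.02 ± 1.47). Neighbours in this order did not overlap between the controls, except Pdgfa with Hgf and Egfl7 with Hbegf. Pdgfa and Hgf exchanged places, with Hgf at 0.979 CPM per kb in control 5 and 3.06 in control 6. Ostn (0.640 ± 0.0946), Egfl7 (0.220 ± 0.245) and Hbegf (0.163 ± 0.0510) were lower still, and Vegfa had no reads. In the cKO library Hgf and Igf1 had the same length-scaled level, 12.3 CPM per kb each, and Ostn stood at 11.3. Pdgfb (5.45), Vegfb (4.16), Egfl7 (3.97) and Pdgfa (2.32) came after them. Hgf per kb stood above 76.9% of tested genes in the cKO library, against 31.2% and 48.9% in controls 5 and 6, and Ostn above 75.4% against 27.0% and 21.3%.

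**Figure D4:**
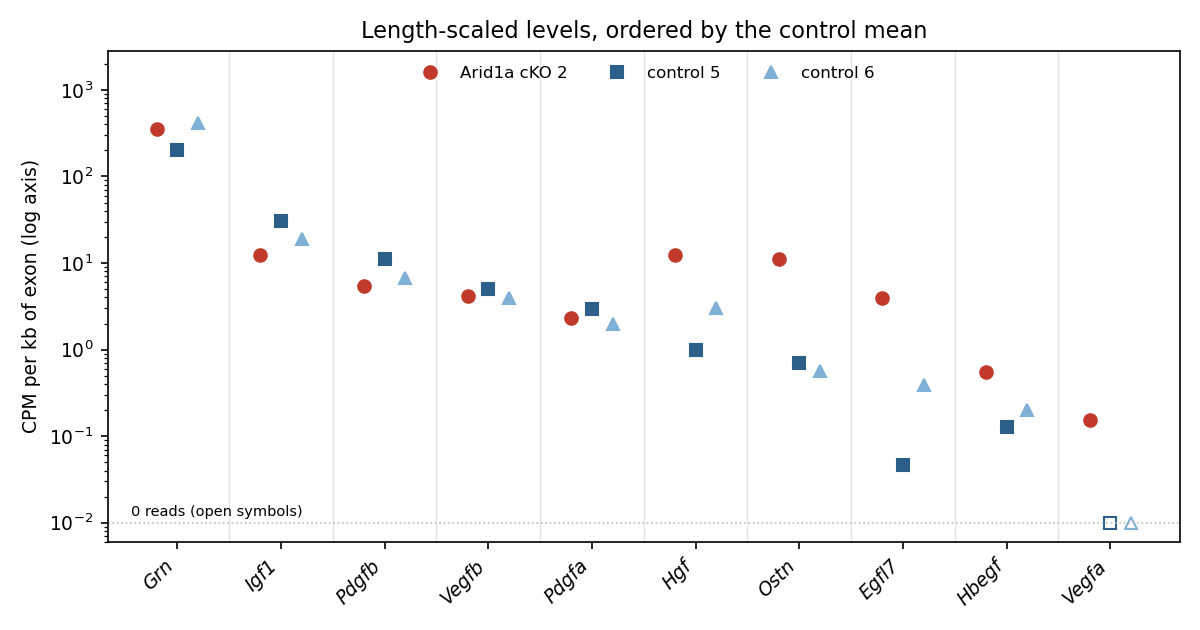
CPM per kb of exon on a log axis for the 10 factors, ordered by the control mean, with 1 symbol per library and the knockout first. Grn is highest in every library, and Hgf and Ostn reach the level of Igf1 in the cKO library and not in the controls; open symbols mark 0 reads.

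The companion genes of these factors were counted as lists chosen by role. Of 22 receptors, 17 were tested, none passed in either direction with edgeR or DESeq2, 1 reached an unadjusted edgeR p under 0.05, 4 lay above and 4 below both controls, and the median log2 fold change was -0.05, or 0.075 without control 6 and -0.25 without control 5. The most abundant receptors were Lrp1, an uptake receptor, at 614 CPM in the cKO library against 277 and 594 CPM, and Nrp1, given above. Of 37 processing and binding proteins, 24 were tested, none passed with edgeR, 3 reached an unadjusted p under 0.05, 9 lay above and 7 below both controls, and the median was -0.09, or 0.22 without control 6 and -0.18 without control 5. DESeq2 called Psap and Hpse. Hpse, the heparanase that frees heparin-bound factors from matrix, had 121 CPM in the cKO library against 30.7 and 29.3 CPM (log2 fold change 2.01, SE 0.40, edgeR adjusted p = 0.212). These shares stand beside 38.0% of all tested genes above both controls and 31.1% below both.

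Of 57 other secreted growth and trophic factors, 29 were tested, and 22 were not listed in either table, among them Bdnf, Gdnf, Il34 and Vegfc. None passed with edgeR, and 6 reached an unadjusted p under 0.05, as did 6.0% of all tested genes. Above both controls lay 14 (48.3%, beside 38.0% of all tested genes) and below both 10 (34.5%, beside 31.1%). Btc, Pdgfc and Tgfb2, at 0 in both controls, are among the 14 and were listed in both tables through their cKO reads alone. Angpt1, also among the 14, had 15 reads in the cKO library, 0 in control 5 and 1 in control 6. The median log2 fold change was 0.41. That median includes genes with 0 reads in a group, whose fitted values depend on the prior count. It was -0.22 among genes with 5 CPM or more in 2 libraries, 0.10 without control 5 and 0.12 with genes in either table, so its direction was not stable. Pros1, the vitamin K-dependent ligand of TAM receptors, was closest to the threshold. It had 471 CPM in the cKO library, against 2739 and 2635 CPM in controls 5 and 6 (log2 fold change -2.51, SE 0.35, edgeR adjusted p = 0.0773, DESeq2 adjusted p = 1.25e-11). The controls lay close together and the knockout far below both. Csf1, the growth factor of macrophages, had 84.8 CPM in the cKO library against 283 and 493 CPM (log2 fold change -2.19, SE 0.47, edgeR adjusted p = 0.274, DESeq2 adjusted p = 6.86e-05). Cyr61, a matrix-associated signalling protein, had 126 CPM in the cKO library against 54.7 and 48.2 CPM (log2 fold change 1.29, SE 0.39, edgeR adjusted p = 0.549). Spp1, osteopontin, had 3447 CPM in the cKO library against 2321 and 1185 CPM (log2 fold change 0.98, SE 0.41, edgeR adjusted p = 0.820). Tgfb2, named after its values were seen, had 53 reads in the cKO library and 0 in each control.

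Hypoxia is a classical inducer of Vegfa, and all 16 genes of the hypoxia list were tested. None passed with edgeR or DESeq2, 2 reached an unadjusted edgeR p under 0.05, 9 lay above both controls (56.2%, beside 38.0% of all tested genes) and 3 below both (18.8%, beside 31.1%). The median log2 fold change was 0.29, beside 0.05 over all tested genes, and 0.10 among genes with 5 CPM or more in 2 libraries. At that level 6 genes of the list lay above both controls and 3 below both. Among the 9 above both, Adm, Egln3 and Ndrg1 had few reads. These were 54, 21 and 19 in the cKO library, against at most 5, 12 and 10 in a control. The glycolytic enzymes Ldha and Hk2 had 997 CPM in the cKO library against 513 and 566 CPM, and 350 CPM against 186 and 167 CPM. The glucose transporter Slc2a1 had 221 CPM in the cKO library against 138 and 165 CPM. Vhl, which marks the hypoxia factors for degradation, had 67.3 CPM in the cKO library against 90.4 and 121 CPM, and Pgk1 had 441 CPM against 585 and 341 CPM, between the controls. Ldha, Hk2, Slc2a1 and Pgk1 thus had many reads in all 3 libraries, in which Vegfa had at most 12, and these levels were not scaled for length.

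**Figure D5:**
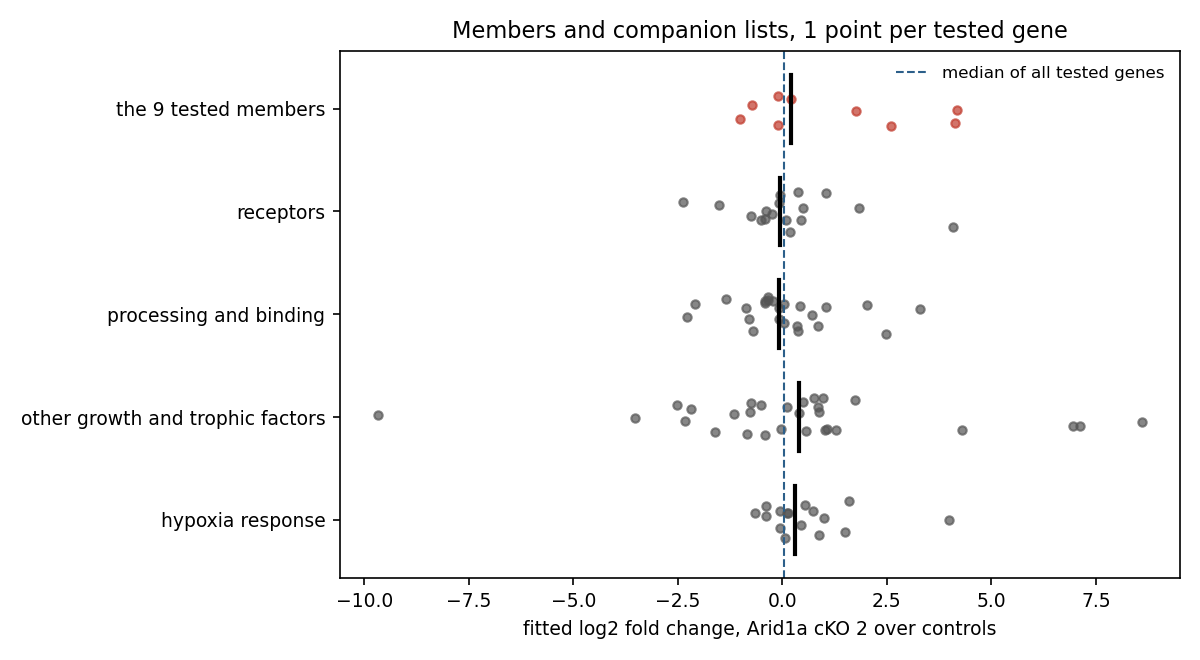
Fitted log2 fold changes, knockout over controls, of the 9 tested members (top row) and of the tested genes of the 4 companion lists, with 1 point per gene, a black bar at each median and a dashed line at the median of all tested genes. Points beyond 6 in either direction belong to genes with 0 reads in a group, whose fitted values depend on the prior count.

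In the authors' deposited table against control 5, 5 members carry the mark of significance, Hgf, Egfl7, Ostn, Hbegf and Vegfa, all higher in the cKO library. The authors' deposited table against control 6 marks the same 5. In both of the authors' deposited tables the marks equal a p-value under 0.01 with a change of over 3-fold, without exception. They were given as higher to 21.7% of the genes in the authors' deposited table against control 5 and to 10.1% in that against control 6. Hbegf stands just inside that limit against control 6, with a fold of 3.01 in the authors' deposited table. Each of those tables sets 1 library against 1, so its p-values compare libraries and not genotypes, and both share the cKO library.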

How the data were processed

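Microglial RNA was measured in sorted cells, and the libraries were made with the Illumina TruSeq RNA kit, per the labels' protocols, which keeps no strand information. Bowtie2 2.2.3, TopHat2 2.0.12, HTSeq 0.6.0 and the build mm9 are named in the submitters' processing notes. The deposited gene positions are not those of that build, since 89.9% of the IDs found in GENCODE M21 had an identical position on GRCm38. Coordinates are as deposited. The authors deposited 2 tables, each with raw read counts for the cKO library and 1 control. The deposited CPM column is the library-scaled count with 0 replaced by 0.5 reads. The deposited fold change is a ratio of these, given also as log2, with a p-value of unstated origin.

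Counts of the shared genes were fitted with edgeR 4.0.16 in R 4.3.3 (filterByExpr, TMM factors of 1.06, 0.963 and 0.981, quasi-likelihood F test, Benjamini-Hochberg, threshold 0.05, two-sided). Residual spread rests on the controls alone (1 degree of freedom), so the cKO library is assumed to vary like them, and the common dispersion was 0.438. The fitting steps were tested on simulated data. Each SE was derived by dividing the log2 fold change by the square root of F. Values over a single control come from a fit at that dispersion. Folds against 0 reads use a floor of 3 reads per library. Exon lengths are unions of GENCODE M21 exons. DESeq2 1.42.0 was an alternative. The members and lists were chosen with earlier results of these data known. From each list were named genes that passed, up to 4 genes outside the control range ranked by p, where the mean level reached 5 CPM, and the 2 most abundant. Partners of each factor and markers are named by role, some after their values were seen.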

Additional observations from a re-analysis of the deposited data

How the results depend on the processing

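No paired analysis was possible because the groups share no replicate numbers. Without a low-count filter edgeR called 0 genes (948 at an unadjusted p under 0.05). It also called 0 after scaling by upper quartiles (818 unadjusted) or by the size factors of DESeq2 (895 unadjusted). It called 44 at 5 CPM or more in 2 libraries and 10 with genes in either table, and the DESeq2 Wald test called 215. The members called stayed at 0 in every edgeR setting and became 1, Hgf, with DESeq2. DESeq2 also called 2 processing and binding proteins and 3 other trophic factors, Pros1, Csf1 and Tgfa, and edgeR at 5 CPM or more called 1, Pros1. Members above both controls were 1 at 5 CPM or more, because the filter removed the low ones. With no filter the median of the members was 0.97, because Vegfa then entered, and at 5 CPM or more it was -0.096, of the other sign. Leaving out a control left 1 library against 1, so no test. Members above the remaining control were 5 to 6 and below it 3 to 4, and their median log2 fold change was 0.21 to 0.81. Arid1a kept its direction, at -0.92 to -0.66. Without control 5 the sign turned for Pdgfa (0.21, against -0.34 without control 6), Vegfb (0.064, against -0.26) and Grn (-0.23, against 0.81), and the cause was not tested. The log2 fold change of Egfl7 was 3.33 without control 5 and 6.36 without control 6. Across settings that kept both controls, the adjusted p was 0.0248 to 0.677 for Hgf, 0.0809 to 0.528 for Ostn, 0.215 to 0.824 for Egfl7 and 0.401 to 0.941 for Igf1. Depth limits Hbegf and Vegfa, with at most 49 reads in a library.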
